A study of Mus musculus with 4 samples.

Results

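The 26S proteasome is built from subunits whose genes carry the prefixes Psma, Psmb, Psmc and Psmd, and its activators, inhibitor and assembly chaperones carry Psme, Psmf and Psmg. Rows of the deposited expression table were taken as members when the gene symbol began with Psm, one of the letters a to g and a digit. The interferon-induced genes Psmb8, Psmb9, Psmb10, Psme1 and Psme2 and rows named as pseudogenes were set apart, and no measured value entered the rule apart from choosing the higher row of a repeated symbol. This gave 44 members of 37305 rows, and 42 of the 44 reached the mean of 1 FPKM (fragments scaled to transcript length and library depth) needed for testing. One of the 42, Psmc3ip, matches by name only: it encodes a cofactor of meiotic recombination and is no proteasome subunit.

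RNA came from primary natural killer (NK) cells of the spleens of C57BL/6 mice of postnatal day 56. For the first 24 hours all cells were kept in mouse IL-15 (recombinant, 50 ng/ml), so the controls carry that cytokine stimulus too. The DKK2 group (2 libraries) then received DKK2, a secreted protein that binds Wnt co-receptors, at 200 ng/ml for 24 hours, and the control group (2 libraries) was mock treated for as long. No label says whether the 2 libraries of a group came from separate animals or cultures, so p-values measure the spread between libraries, which may be technical. In bulk RNA, fewer cells of a type and less RNA per cell cannot be told apart.

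The proteasome degrades proteins that have been tagged with ubiquitin. Its core particle is a barrel of stacked rings, with outer rings of alpha subunits that form the gate and inner rings of beta subunits that hold the proteolytic sites. The regulatory particle caps the barrel, binds and removes ubiquitin, and its ring of ATPases unfolds the substrate and threads it into the core. Cells usually make the subunits in matched amounts, and when proteasome activity drops the transcription factor NFE2L1 raises their transcription. In activated lymphocytes such as NK cells the constitutive catalytic subunits work beside interferon-induced ones, which favour the production of peptides for presentation.

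A library had values above 0 in 18951 to 20549 rows, and the single row mmu-mir-703 held 25.7% and 8.44% of all FPKM in the DKK2 libraries, against 11.8% and 17.1% in the controls. No read totals were given. Judged by the spacing of low values, 1 fragment in a transcript of 1 kb was worth 0.0455 and 0.0450 FPKM in the DKK2 libraries, and 0.0180 and 0.0513 FPKM in the controls, which makes control replicate 1 the deepest library. All 9 NK cell markers were detected, with a summed level of 11643 and 10403 FPKM in the DKK2 libraries and 16415 and 13874 FPKM in the controls. The granzyme gene Gzmb made up most of that sum, with 6895 and 6115 FPKM in the DKK2 libraries and 11543 and 9908 FPKM in the controls, whereas 7 of the 9 markers had a log2 fold change above 0 and the median of the list was 0.12. Markers of other cells were present as well, and 48 of 58 were lowest in control replicate 1. The summed level of monocyte and macrophage markers was 784 and 496 FPKM in the DKK2 libraries, against 27.8 and 305 FPKM in the controls, with 9 of 10 markers lowest in control replicate 1 and C1qa and C1qc listed at 0 there. The summed level of neutrophil markers was 3529 and 117 FPKM in the DKK2 libraries, against 1.18 and 60.5 FPKM in the controls, with 9 of 9 lowest in control replicate 1. The part of these other cells in the proteasome values below was not tested.

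Proteasome genes were strongly expressed in these NK cells, and none of the 42 tested members passed limma's test for a difference between DKK2 and control. No member had an adjusted p below 0.05, against 4 genes or 0.0326% of the 12275 tested, and 0 of 42 had an unadjusted p below 0.05, against 1.84% of all genes. Every member had a limma adjusted p of 0.9996. The log2 fold changes (DKK2 minus control, of FPKM + 1) ran from -0.71 for Psmd13 to 0.30 for Psma5, with 13 members above 0 and 29 below. Of all 12275 genes tested, 5357 were above 0 and 6918 below. The member median was -0.11, and that of all genes tested was -0.05. In 37 of 42 members the difference was smaller than its own standard error (SE), as it was in 8567 of the 12275 genes tested.

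The DKK2 libraries lay jointly above both controls in 0 of 42 members, where 11.8% of all genes did so. Both lay below both controls in 4 members, Psmd13, Psmd2, Psme3 and Psmb7, where 14.8% of all genes did so. In the other 38 the groups overlapped. With 2 libraries a group the 95% intervals stayed wide: their half-widths ran from 0.64 to 1.12 on the log2 scale, the lowest bound was -1.82 and the highest was 1.11. Every tested member's interval contained 0, so its difference cannot be told from 0 at this spread. An exact permutation test of 2 against 2 libraries cannot go below p = 0.33. The median over members also depended on single libraries: it was 0.10 without DKK2 replicate 2, 0.01 without control replicate 1, -0.24 without DKK2 replicate 1 and -0.20 without control replicate 2.

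**Figure D1:**
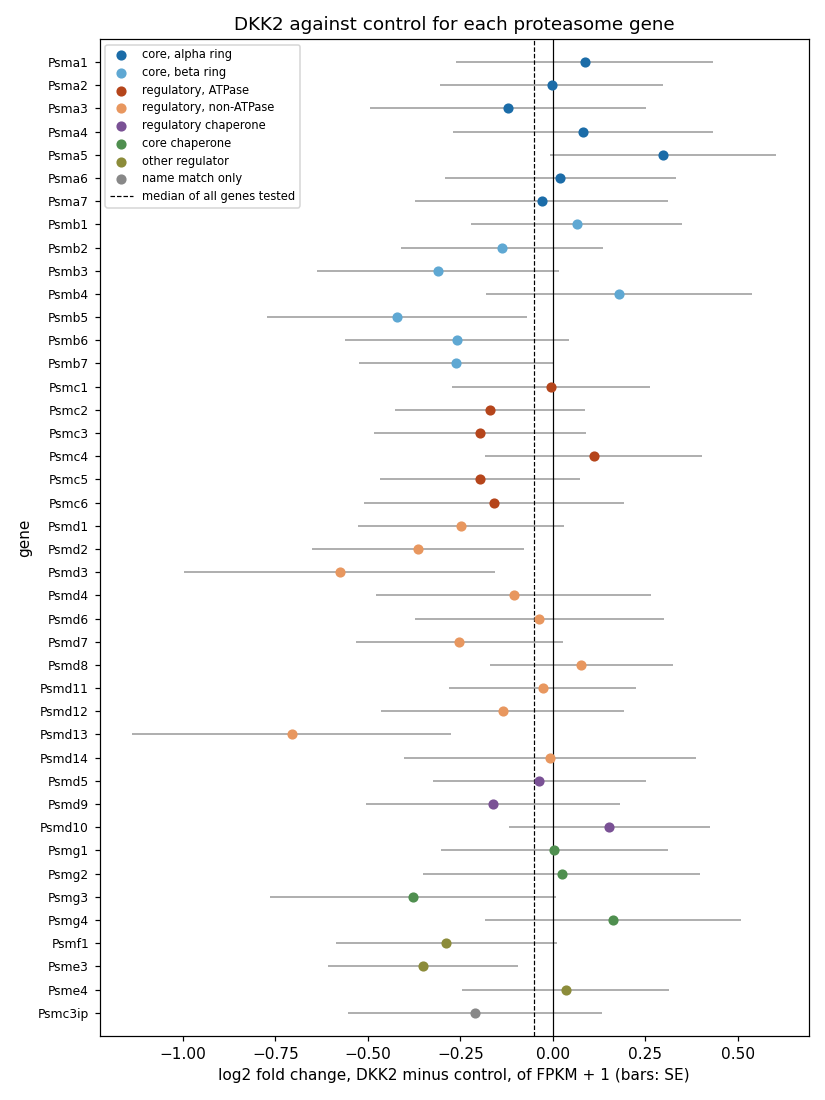
Log2 fold change of FPKM + 1, DKK2 minus control, for each of the 42 tested members, with bars of 1 SE of the limma fit and colours for the role of the gene. The values lie between -0.71 and 0.30 around a dashed line at -0.05, the median of all genes tested.

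Levels spanned over 2 orders of magnitude among members. The mean over the 4 libraries was above 50 FPKM in 32 members and ran from 7.94 FPKM for the chaperone gene Psmd9 to 926 FPKM for the core gene Psmb4. Within a member the libraries lay close: the highest library exceeded the lowest by 1.16 to 2.54 times, with a median of 1.55. The least variable was Psmd8, a lid subunit of the regulatory particle, with 138 and 127 FPKM in the DKK2 libraries and 133 and 119 FPKM in the controls. By class, the median of the members' mean levels was 200 FPKM in the beta ring, 152 FPKM in the alpha ring, 110 FPKM in the non-ATPase subunits and 108 FPKM in the ATPases. It was far lower for genes that assemble or modify the particle, at 39.6 FPKM for regulatory particle chaperones, 29.7 FPKM for core chaperones and 25.9 FPKM for the activators and inhibitor.

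**Figure D2:**
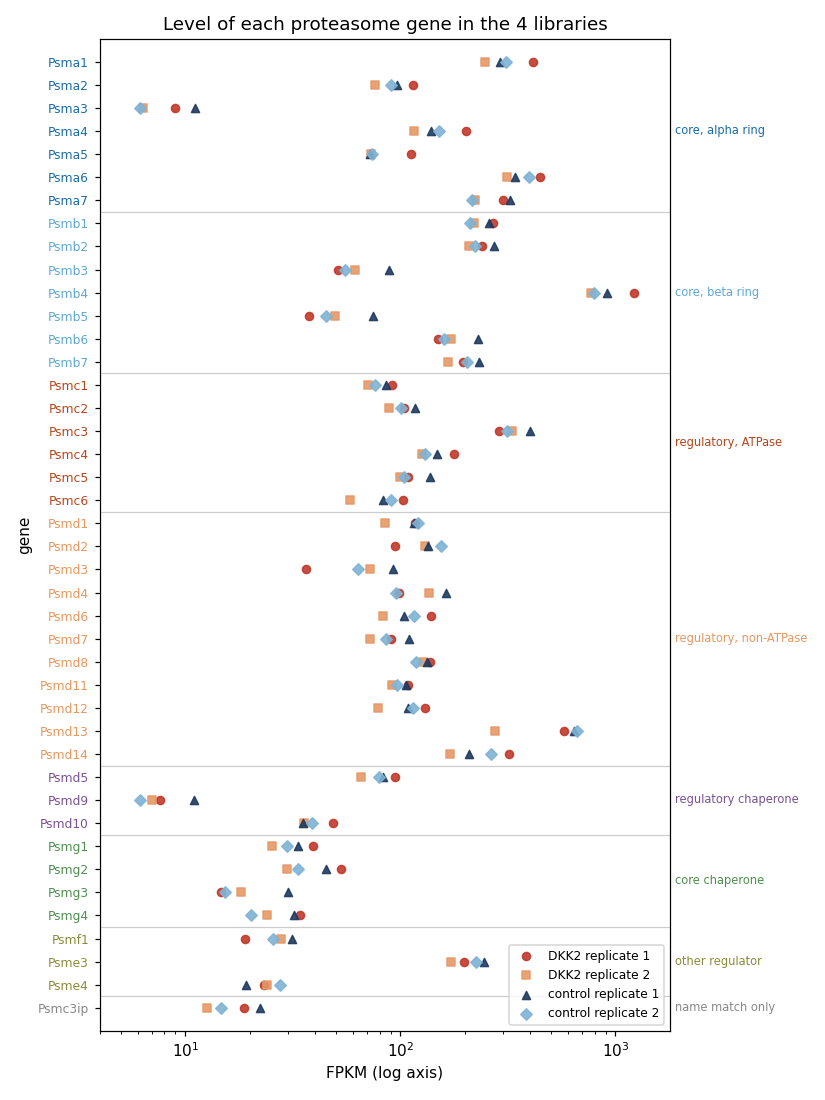
Level of each tested member in the 4 libraries, in FPKM on a log axis, grouped by role, with 1 point a library coloured by group. Points of both groups intermix in most genes, and core and regulatory subunits sit above the chaperones.

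The alpha ring is encoded by Psma1 to Psma7. Its highest member, Psma6, had 445 and 312 FPKM in the DKK2 libraries and 340 and 396 FPKM in the controls, a log2 fold change of 0.02 ± 0.31 (SE, n = 2 each). Its lowest, Psma3, had 9.002 and 6.364 FPKM in the DKK2 libraries and 11.2 and 6.17 FPKM in the controls. Psma3 thus stood far below its partners in the same ring, although every ring holds each alpha subunit, and the groups overlapped in both genes. Psma5 showed the highest fold change of all members, with 112 and 72.7 FPKM in the DKK2 libraries and 72.2 and 74.1 FPKM in the controls. That difference of 0.30 ± 0.31 came from DKK2 replicate 1 alone: DKK2 replicate 2 lay between the controls, and without DKK2 replicate 1 the value was -0.01. The same library was the highest in 5 of the 7 alpha genes (Psma1, Psma2, Psma4, Psma5 and Psma6), against 27.7% of all genes. Psma1, for one, had 412 and 247 FPKM in the DKK2 libraries and 290 and 311 FPKM in the controls, so that the controls lay between the DKK2 libraries. Psma2, Psma4 and Psma7 had log2 fold changes between -0.03 and 0.08, and the median of the ring was 0.02, with 4 genes above 0 and 3 below.

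The beta ring holds the 3 proteolytic subunits of the constitutive core, encoded by Psmb5 (chymotrypsin-like activity), Psmb6 (caspase-like activity) and Psmb7 (trypsin-like activity). Psmb5 had 37.4 and 49.9 FPKM in the DKK2 libraries and 75.0 and 45.2 FPKM in the controls, a log2 fold change of -0.42 ± 0.35. The difference depended on control replicate 1, the highest library, and was -0.06 without it and -0.78 without control replicate 2. Psmb6 had 149 and 172 FPKM in the DKK2 libraries and 231 and 160 FPKM in the controls (-0.26 ± 0.30). Psmb7 had 196 and 167 FPKM in the DKK2 libraries and 232 and 203 FPKM in the controls (-0.26 ± 0.26). Only in Psmb7, of these 3, were both DKK2 libraries below both controls, and none passed limma's test, with 95% intervals of -1.33 to 0.49 for Psmb5, -1.04 to 0.52 for Psmb6 and -0.94 to 0.42 for Psmb7. The exons of Psmb7 share 405 bases with Nek6, a kinase gene on the opposite strand, which had 14.7 and 18.7 FPKM in the DKK2 libraries and 58.0 and 18.1 FPKM in the controls. An exon of Psmb5 holds the microRNA row Mir686 on the same strand, with 1122 and 1368 FPKM in the DKK2 libraries and 2574 and 1086 FPKM in the controls. The use of strand in counting is not given, and the part of either neighbour in these values was not tested.

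The 4 beta subunits without a proteolytic site are encoded by Psmb1, Psmb2, Psmb3 and Psmb4. Psmb4 was the highest member of all, with 1219 and 768 FPKM in the DKK2 libraries and 918 and 798 FPKM in the controls. DKK2 replicate 1 stood above the rest and DKK2 replicate 2 below both controls, and the fold change of 0.18 ± 0.36 turned to -0.16 without DKK2 replicate 1. Psmb1, Psmb2 and Psmb3 lay between -0.31 and 0.06. The median over the beta ring was -0.26, with 2 genes above 0 and 5 below. Control replicate 2 was below control replicate 1 in 7 of 7 beta genes, against 57.8% of all genes, with a median difference of -0.30. That sets 1 library against 1, whereas the group difference averages 2 libraries a group.

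The promoter letters of the catalytic genes are shown because NFE2L1 and its relative NFE2L2 act on proteasome genes through an antioxidant response element, whose core was searched as TGACNNNGC. RefSeq promoters (build GRCm38.p6, 250 bases before to 50 bases after the gene start) were at hand for Psmb5 and Psmb6. In these 60-base windows, read 5′ to 3′ on the strand of the gene, capitals mark the match, which lies 47 to 39 bases before the start of Psmb5 and 9 to 1 bases before that of Psmb6.
Psmb5 (chr14:54618009-54618068, minus strand): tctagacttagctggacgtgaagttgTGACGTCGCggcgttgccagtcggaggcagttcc
Psmb6 (chr11:70525297-70525356, plus strand): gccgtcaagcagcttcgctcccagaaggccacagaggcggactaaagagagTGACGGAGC
Over all members with an entry (36 of 44 genes, 38 promoters), 6 promoters held the letters on either strand, those of Psmb5, Psmb6, Psmc6, Psmd12, Psmd9 and Psme4. That is 15.8% of member promoters, beside 12.4% of all 32851 promoters. A match describes the letters only and is no evidence of a bound site.

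The ring of 6 ATPases, Psmc1 to Psmc6, unfolds the substrate and opens the gate of the core. The highest, Psmc3, had 289 and 331 FPKM in the DKK2 libraries and 402 and 314 FPKM in the controls (-0.20 ± 0.29), and its exons share 215 bases with Slc39a13 on the opposite strand. The lowest, Psmc1, had 91.8 and 70.9 FPKM in the DKK2 libraries and 85.6 and 76.6 FPKM in the controls, with DKK2 replicates at the top and at the bottom. Psmc4 was the one ATPase gene above 0, with 178 and 126 FPKM in the DKK2 libraries and 148 and 131 FPKM in the controls (0.11 ± 0.29). Here too the DKK2 libraries enclosed the controls, and without DKK2 replicate 1 the value was -0.13. Psmc2, Psmc5 and Psmc6 lay between -0.20 and -0.16. The median over the ATPases was -0.17, and DKK2 replicate 2 was the lowest library in 5 of 6, against 26.5% of all genes.

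The non-ATPase subunits comprise the scaffolds Psmd1 and Psmd2, the ubiquitin receptor Psmd4, the deubiquitinase Psmd14 with its partner Psmd7, and the lid subunits Psmd3, Psmd6, Psmd8, Psmd11, Psmd12 and Psmd13. Psmd13 had the lowest fold change and the smallest unadjusted p of all members (0.164). It stood at 579 and 277 FPKM in the DKK2 libraries and 642 and 666 FPKM in the controls, averaging 428 ± 214 FPKM in DKK2 and 654 ± 17.4 FPKM in control libraries (SD, n = 2 each). The log2 fold change of -0.71 ± 0.43 rested on DKK2 replicate 2, whose level was the outlying one, and was -0.18 without it and -1.24 without DKK2 replicate 1. The exons of Psmd13 share 342 bases with Sirt3 on the opposite strand, which had 6.80 and 10.6 FPKM in the DKK2 libraries and 13.2 and 8.37 FPKM in the controls.

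Psmd3, the lid subunit with the lowest level of the regulatory particle, had 36.3 and 71.9 FPKM in the DKK2 libraries and 92.3 and 63.8 FPKM in the controls (-0.58 ± 0.42). Its libraries differed the most of all members, by 2.54 times, and the groups overlapped. Without DKK2 replicate 1 its fold change was -0.09, and without DKK2 replicate 2 it was -1.06. Psmd2, the scaffold on which ubiquitin shuttle proteins dock, had 94.9 and 131 FPKM in the DKK2 libraries and 134 and 154 FPKM in the controls. Both DKK2 libraries were below both controls, with a fold change of -0.36 ± 0.29 that became -0.14 without DKK2 replicate 1 and -0.59 without DKK2 replicate 2. The other 8 genes lay between -0.25 (Psmd1 and Psmd7) and 0.08 (Psmd8), and Psmd8 was the one non-ATPase gene above 0. Over the 11 genes the median was -0.14, with 10 below 0. Psmd14 stands on 2 rows of the table, and the higher was used.

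Chaperones that assemble the regulatory particle are encoded by Psmd5, Psmd9 and Psmd10, the last also known as gankyrin. Psmd5, the highest of these, had 94.7 and 65.8 FPKM in the DKK2 libraries and 82.7 and 79.4 FPKM in the controls. Psmd9, the lowest of all tested members, had 7.61 and 6.99 FPKM in the DKK2 libraries and 10.996 and 6.177 FPKM in the controls, and shares 1849 exon bases with the long noncoding gene Gm26745 on the opposite strand. Psmd10 had 48.4 and 35.5 FPKM in the DKK2 libraries and 35.4 and 39.0 FPKM in the controls (0.15 ± 0.27). The groups overlapped in all 3 genes, and the value of Psmd10 was -0.07 without DKK2 replicate 1.

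The core is assembled with the help of chaperones encoded by Psmg1 to Psmg4, which pair the alpha subunits. Psmg2, the highest, had 53.0 and 29.6 FPKM in the DKK2 libraries and 45.3 and 33.5 FPKM in the controls. Psmg3, the lowest, had 14.6 and 18.2 FPKM in the DKK2 libraries and 30.0 and 15.3 FPKM in the controls. Its fold change of -0.38 ± 0.39 followed the high control replicate 1 and was 0.08 without it. Psmg4 had 34.2 and 23.9 FPKM in the DKK2 libraries and 32.002 and 20.223 FPKM in the controls (0.16 ± 0.35), which was -0.09 without DKK2 replicate 1 and -0.16 without control replicate 2. Psmg4 was also the tested member with the fewest estimated fragments in a library, 219. That estimate takes the longest protein-coding transcript as the length of each gene and would change with another transcript. Psmg1 had a fold change near 0, and control replicate 2 was below control replicate 1 in all 4 genes, against 57.8% of all genes tested.

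Psme3 encodes the nuclear activator PA28 gamma, Psme4 the activator PA200 and Psmf1 the proteasome inhibitor PI31. Psme3 had 197 and 172 FPKM in the DKK2 libraries and 246 and 224 FPKM in the controls, averaging 184 ± 17.9 FPKM in DKK2 and 235 ± 15.4 FPKM in control libraries (SD, n = 2 each). Both DKK2 libraries were below both controls, the log2 fold change was -0.35 ± 0.26, and leaving out any 1 library kept it between -0.45 and -0.25. Because its groups did not overlap, leaving out 1 library could not change its sign, so no stability is read from that range. The limma adjusted p of Psme3 was 0.9996 and its unadjusted p 0.233. Psme4 had 23.3 and 23.9 FPKM in the DKK2 libraries and 19.2 and 27.5 FPKM in the controls, so that the DKK2 libraries lay between the controls. Psmf1 had a fold change of -0.29 ± 0.30. The name match Psmc3ip had one of -0.21 ± 0.34.

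Members below the filter are tissue-specific core subunits. Psma8, the alpha subunit of testis, was listed at 0.39 and 0.17 FPKM in the DKK2 libraries and at 0.24 and 0.06 FPKM in the controls. Psmb11, the beta subunit of thymic epithelium, was listed at 0 in both DKK2 libraries and at 0.004 and 0.012 FPKM in the controls, about 1 fragment in each control. Psmb11 therefore stood at or near the limit of detection in every library. Psma8 rested on an estimated 14.5 and 6.5 fragments in the DKK2 libraries and 22.8 and 1.9 in the controls. No fold is given for either gene. Among rows named as pseudogenes, which could share fragments with their parents, those of Psmb5 and Psmb6 were at most 0.09 FPKM. Psmb7-ps2 had 1.08 and 1.13 FPKM in the DKK2 libraries and 1.23 and 0.86 FPKM in the controls, far below Psmb7 itself.

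Set against each other, the core particle (14 genes) and the regulatory particle without its chaperones (17 genes) had median log2 fold changes of -0.02 and -0.16. In the core 6 genes were above 0 and 8 below, and in the regulatory particle 2 were above and 15 below. The mean log2 level of the core exceeded that of the regulatory particle by 0.27 and 0.21 in the DKK2 libraries and by 0.19 and 0.05 in the controls. The excess averaged 0.24 ± 0.05 in DKK2 libraries and 0.12 ± 0.10 in control libraries (SD, n = 2 each), a difference of 0.12. Both DKK2 libraries were above both controls, DKK2 replicate 2 by only a small step over control replicate 1. Control replicate 2 carried much of the difference, which was 0.05 without it and 0.19 without control replicate 1. Left-out libraries also moved the medians of both particles. For the core these were 0.20 without DKK2 replicate 2, 0.03 without control replicate 1, -0.24 without DKK2 replicate 1 and -0.19 without control replicate 2. For the regulatory particle they were -0.02 without DKK2 replicate 2, -0.08 without control replicate 1, -0.26 without DKK2 replicate 1 and -0.21 without control replicate 2.

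Member medians differed between single libraries of the same group about as much as between single libraries of different groups. DKK2 replicate 2 minus DKK2 replicate 1 had a median of -0.40 over members and 0.07 over all genes, and control replicate 2 minus control replicate 1 had one of -0.18 over members and -0.08 over all genes. DKK2 replicate 2 was the highest library in 0 of 42 members, against 25.7% of all genes, and below both controls in 25 members (59.5%), against 34.2% of all genes. DKK2 replicate 1 went the other way and was above both controls in 20 members (47.6%), against 32.6% of all genes. The part of single libraries was plain in each pairing: the member median was 0.02 for DKK2 replicate 1 minus control replicate 1 and 0.19 for DKK2 replicate 1 minus control replicate 2. It was -0.37 for DKK2 replicate 2 minus control replicate 1 and -0.12 for DKK2 replicate 2 minus control replicate 2.

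Classes differed in this pattern. Over the alpha ring, DKK2 replicate 1 exceeded control replicates 1 and 2 by medians of 0.39 and 0.41, and DKK2 replicate 2 lay below them, with medians of -0.25 and -0.24. Over the beta ring the medians of DKK2 replicate 1 were -0.24 and -0.05, and those of DKK2 replicate 2 were -0.42 and 0.06. The alpha ring thus split by DKK2 library, and the beta ring set control replicate 1 above the rest. In the regulatory particle DKK2 replicate 2 was below both controls in 13 of 17 genes, against 34.2% of all genes.

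**Figure D3:**
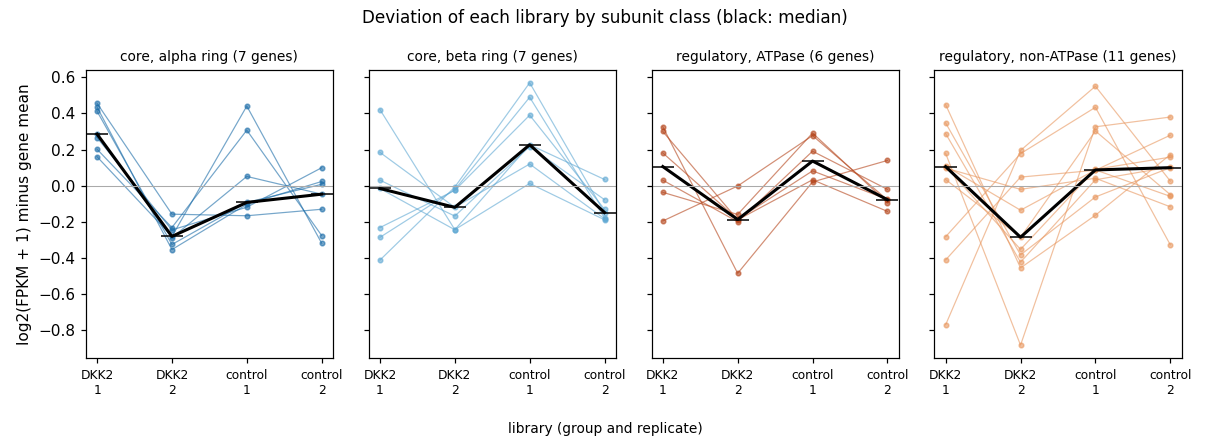
Deviation of log2(FPKM + 1) from the gene's own mean over the 4 libraries, for the alpha ring (7 genes), beta ring (7), ATPases (6) and non-ATPase subunits (11), with 1 thin line a gene and the class median in black. DKK2 replicate 1 lies high over the alpha ring, and control replicate 1 lies high over the beta ring.

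These library differences went with the GC content of the transcripts, a property that also differs between the rings. The median GC content was 45.0% in the alpha ring, 52.2% in the beta ring, 50.5% in the ATPases and 49.7% in the non-ATPase subunits. Across the 42 members, which share the same 4 libraries and so are not independent, GC content had a Spearman rho of -0.55 with DKK2 replicate 1 minus the control mean, and of 0.38 with DKK2 replicate 2 minus the control mean. It was -0.65 with control replicate 2 minus control replicate 1, a difference within a group. The same signs held over 11801 genes with a GC value, where rho was -0.37, 0.33 and -0.44 in that order. For DKK2 minus control, rho was -0.39 over members and -0.10 over all genes.

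In sets of 14 members by rising GC content (37.0% to 47.9%, 47.9% to 51.5% and 51.6% to 58.3%), DKK2 replicate 1 minus the control mean had medians of 0.28, 0.01 and -0.24. DKK2 replicate 2 minus the control mean had medians of -0.31, -0.27 and -0.16, each below 0. Control replicate 2 minus control replicate 1 had medians of 0.11, -0.20 and -0.52. For DKK2 minus control the medians were -0.01, -0.15 and -0.20. After each library was corrected for its trend with GC content, a step chosen after seeing the data, the member median was -0.04, the core median 0.03, the regulatory median -0.11 and the core minus regulatory difference 0.12.

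**Figure D4:**
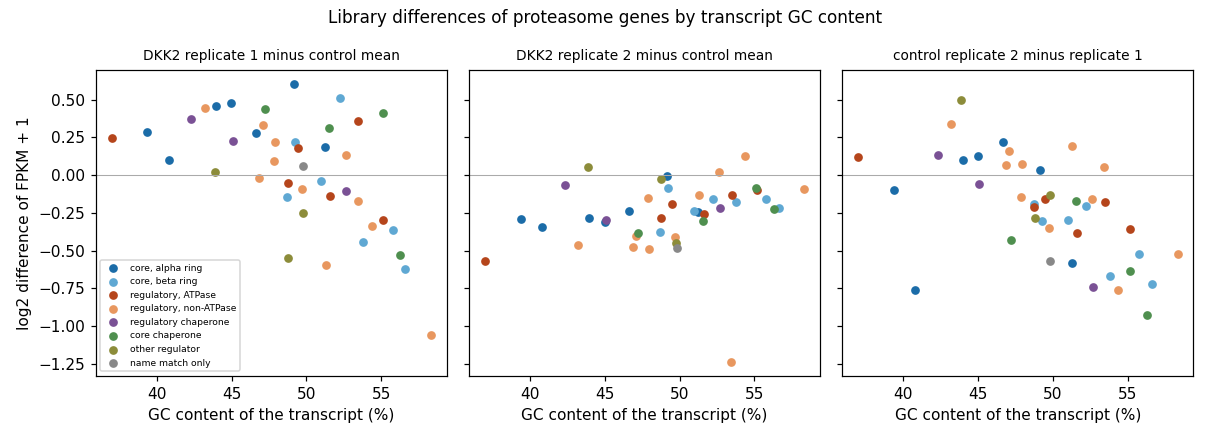
Log2 difference of FPKM + 1 between libraries against the GC content of the transcript in percent, 1 point for each of the 42 tested members, coloured by role. The 3 panels show DKK2 replicate 1 minus the control mean (rho -0.55), DKK2 replicate 2 minus the control mean (0.38) and control replicate 2 minus control replicate 1 (-0.65).

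Proteasome promoters share letters beyond those of the catalytic genes. The motif CCGGAAG, bound by ETS factors, was on either strand of 16 of 38 member promoters (42.1%, from 15 genes), beside 8.86% of all promoters in the RefSeq table. The E-box CACGTG was in 7.89% of member promoters and 7.15% of all promoters, and CCAAT was in 36.8% and 37.4%. The windows of Psmd2 and Psme3 are printed because these are 2 of the 4 members with both DKK2 libraries below both controls. Capitals mark CCGGAAG or its reverse complement, 26 to 20 bases before the start of Psmd2 and 107 to 101 bases before that of Psme3.
Psmd2 (chr16:20651592-20651651, plus strand): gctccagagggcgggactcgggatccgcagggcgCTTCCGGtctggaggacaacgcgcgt
Psme3 (chr11:101316079-101316138, plus strand): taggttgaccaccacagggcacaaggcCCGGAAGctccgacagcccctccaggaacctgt
No other motif searched overlaps the capitals in these windows, and no entry was at hand for Psmb7. Psmd13 also held the letters, but not wholly before its start, so no window is printed. Members whose groups overlapped, such as Psma6, Psmc1, Psmd6 and Psme4, held them as well. These matches describe letters only and are no evidence of a bound site or of a link with DKK2.

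The interferon-induced subunits replace the catalytic ones (Psmb8, Psmb9 and Psmb10) or form the activator PA28 (Psme1 and Psme2), and 0 of 5 passed limma's test. All 5 fold changes were above 0, as were those of 5357 of the 12275 genes tested, and their median was 0.47. In Psmb9, Psme1 and Psme2, 3 of 5, both DKK2 libraries lay above both controls, where 11.8% of all genes did so. In Psmb8 (0.02 ± 0.31) and Psmb10 (0.12 ± 0.38) the groups overlapped, and DKK2 replicate 1 was the lowest library. Psmb9 had 336 and 255 FPKM in the DKK2 libraries and 184 and 181 FPKM in the controls (0.68 ± 0.28). Its adjusted p by limma was 0.9996 and its unadjusted p 0.061. Psme2 had 195 and 155 FPKM in the DKK2 libraries and 107 and 116 FPKM in the controls (0.64 ± 0.26), with a limma adjusted p of 0.9996 and an unadjusted p of 0.062. Psmb6, whose subunit is the one exchanged for that of Psmb9, had a fold change of -0.26, which was 0.0019 without control replicate 1. The values of this pair thus differed in sign with all libraries kept, and neither passed the test. Psmb5 (-0.42) and Psmb7 (-0.26) were below 0 too, so the difference in sign was not particular to this pair. Beside these values, the summed level of dendritic cell markers was 406 and 409 FPKM in the DKK2 libraries and 41.5 and 190 FPKM in the controls. H2-Ab1 and Cd74 made up most of that sum in every library but control replicate 1, where Itgax did with 34.0 FPKM. Flt3, Xcr1, Clec9a and Siglech were below 1 FPKM in every library. Of the 8 dendritic cell markers 6 were lowest in control replicate 1, and Clec9a was listed at 0 in DKK2 replicate 2 and control replicate 1. The part of dendritic cells in the induced subunits was not tested. The row Psme2b-ps, a near copy of Psme2, had 418 and 354 FPKM in the DKK2 libraries and 310 and 303 FPKM in the controls, so fragments of Psme2 may have been split.

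Among 15 partners of the proteasome (assembly factor, ubiquitin receptors, deubiquitinases, shuttles), 0 passed limma's test after adjustment and 1 had an unadjusted p below 0.05, against 1.84% of all genes. Their median was -0.15, with 12 below 0, as were 6918 of all 12275 genes. In 4 of the 15, Ube3c, Rad23b, Ubqln1 and Ubqln2, both DKK2 libraries were below both controls, where 14.8% of all genes were. Rad23b, a shuttle that carries ubiquitinated proteins to the proteasome, had 55.1 and 59.9 FPKM in the DKK2 libraries and 95.3 and 84.1 FPKM in the controls (-0.63 ± 0.24), with a limma adjusted p of 0.9996 and an unadjusted p of 0.0495.

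Of 6 genes that encode ubiquitin or its activating enzymes, 0 passed limma's test at either threshold, with a median of 0.04. Uba6, a ubiquitin-activating enzyme, had 15.3 and 13.5 FPKM in the DKK2 libraries and 14.8 and 21.2 FPKM in the controls (-0.28 ± 0.29).

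Of 15 genes of the NFE2L1 pathway (the factor, its relatives and partners, and the p97 machinery that extracts it from the endoplasmic reticulum), 0 passed limma's test at either threshold. The median was -0.19, with 11 below 0. Nfe2l1 itself had 22.7 and 62.3 FPKM in the DKK2 libraries and 67.2 and 50.6 FPKM in the controls (-0.62 ± 0.52). DKK2 replicate 1 stood far below the other libraries, and DKK2 replicate 2 lay between the controls. Nploc4, a p97 cofactor, had 30.7 and 57.6 FPKM in the DKK2 libraries and 59.7 and 63.3 FPKM in the controls (-0.54 ± 0.37). In 11 of these 15 genes DKK2 replicate 1 was the lowest library, which was so in 8 of 42 proteasome members and in 37.1% of all genes.

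Another large protein machine, the 8-subunit CCT chaperonin that folds actin and tubulin, was set beside the proteasome. Its median fold change was -0.19, with 7 of 8 genes below 0 and 0 past limma's test at either threshold. DKK2 replicate 2 was below both controls in 8 of 8 CCT genes, as it was in 25 of 42 proteasome members and 34.2% of all genes. The 5 prefoldin genes had a median of -0.27. The difference between the proteasome and these complexes was not tested.

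**Figure D5:**
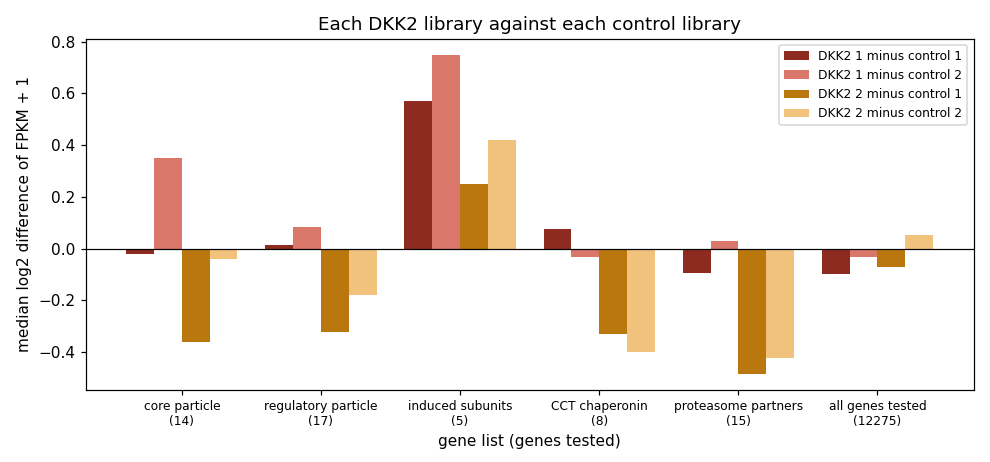
Median log2 difference of FPKM + 1 for each DKK2 library against each control library, by gene list, with the number of genes tested in brackets. Bars of DKK2 replicate 2 lie below 0 for core, regulatory, CCT and partner genes, and all 4 bars of the induced subunits lie above 0.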

How the data were processed

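RNA of 4 libraries was analysed, 2 of DKK2-treated and 2 of mock-treated NK cells. The deposited table gives FPKM values per gene, per the file headers, and the 4 value columns were matched to samples by name, with 0 further value columns left aside. Per the submitters' processing notes, TopHat2 2.1.0, Cuffdiff 2.1.0, CASAVA, edgeR and the build mm9 were used, with no role stated. The annotation, the use of strand and read totals are not given in the sources used here, so the depth is known only relatively and no interval of counting error is given.

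Values were taken as log2(FPKM + 1), a scale that understates changes of low genes. The 12275 rows with a mean of at least 1 FPKM were fitted with limma 3.58.1 in R 4.3.3 (eBayes with trend, two-sided), with Benjamini-Hochberg adjustment over all of them and a threshold of 0.05. The design had foreseen RPKM, and the headers name FPKM.

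The members, gene lists, tests and alternatives were chosen with earlier results of these data known. Values per library are given for the catalytic subunits, the 5 members with the highest and the 5 with the lowest fold change, the highest and lowest member of each role class, members below the filter, and the 2 genes with the largest absolute fold change in each related list. Of the related genes, 2 that this rule names are not reported here. Other members given per library (Psma1, Psmd8) and rows that share sequence were chosen after their values were seen.

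GC content, transcript length and exon overlaps came from GENCODE M21 by symbol, for 44 of 44 members and 96.1% of genes tested. GC content and length were those of the longest protein-coding transcript of a symbol, or of its longest transcript where none was protein-coding. Promoters came from RefSeq (GRCm38.p6), and no coordinates of the table's own build were used. No label says whether replicate numbers pair the samples, and the main fit left them unpaired. Deviations of same-numbered libraries had a correlation of 0.01. That value cannot decide the question, because the replicate differences within each group had opposite trends with GC content, which could hide a shared effect. Over all genes with a GC value, rho was 0.51 between the DKK2 libraries and -0.44 between the controls, later minus earlier replicate. Alternatives covered the pseudocount, the filter, scaling, the trend, a replicate block, repeated symbols, each library left out and, added after seeing the data, GC content.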

Additional observations from a re-analysis of the deposited data

How the results depend on the processing

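Of the 12275 genes tested, 4 had a limma adjusted p below 0.05. This count became 0 with no filter on low values, 8 with a replicate block, 0 after correction for GC content, and 0 to 0 when any 1 library was left out; the cause was not tested. Proteasome members called stayed at 0 under every alternative run, the replicate block included. No alternative that kept all 4 libraries gave a member an unadjusted limma p below 0.05. Over all genes tested, such counts ran from 151 of 9119 (mean of at least 5 FPKM) to 949 of 22869 (no filter). With all 4 libraries kept, the member, core and regulatory medians and the core minus regulatory difference moved by less than the spread between libraries. The ranges over left-out libraries were -0.24 to 0.10, -0.24 to 0.20, -0.26 to -0.02 and 0.05 to 0.19, in that order. With 2 libraries a group, a left-out library can hardly move such values beyond that spread, so no stability is read from these ranges. Of 273 values of the 21 members followed under alternatives, 25 changed sign. Quantile normalization gave Psma6 -0.0159, Psmc1 0.0272 and Psmd5 0.0037, median scaling gave Psmc1 0.0628 and Psmd5 0.0312, and GC correction gave Psmc1 0.0254. With 1 library left out, the log2 fold change ran from -0.50 to 0.26 for Psma3, from -0.00924 to 0.61 for Psma5, from -0.24 to 0.28 for Psma6, from -0.16 to 0.51 for Psmb4, from -0.52 to 0.0019 for Psmb6, from -0.19 to 0.18 for Psmc1, from -0.13 to 0.36 for Psmc4, from -0.0655 to 0.37 for Psmd10, from -0.30 to 0.22 for Psmd5, from -0.53 to 0.21 for Psmd9, from -0.21 to 0.28 for Psme4, from -0.39 to 0.43 for Psmg2, from -0.84 to 0.0845 for Psmg3 and from -0.16 to 0.48 for Psmg4. In these fits a lone library of a group is assumed to vary like the others. Depth limited Psma8 and Psmb11, which rest on few fragments.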

Other observations

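Larp1b, D1Ertd622e, Mrps28, Rbm8a and Mutyh followed the mean log2 level of the proteasome members most closely over the 4 libraries. The lowest Pearson r of these genes was 0.99896, for Mutyh. With 4 libraries such values are a description, and they were picked from 10080 genes. Larp1b, which encodes an RNA-binding protein, had 14.3 and 11.7 FPKM in the DKK2 libraries and 15.2 and 13.0 FPKM in the controls. Mrps28, which encodes a protein of the mitochondrial ribosome, had 25.4 and 12.9 FPKM in the DKK2 libraries and 30.7 and 18.8 FPKM in the controls.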
